A study of Homo sapiens with 96 samples.

Results

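GAS5 is a long non-coding RNA gene whose poly(A) RNA in A549 cells is described here through every splicing event listed under its symbol in 8 rMATS tables. All events with the symbol GAS5 were taken, which gave 425 distinct events of 239131 in all. They comprise 10 of the 4928 retained introns (RI), 189 pairs of mutually exclusive exons (MXE), 173 exons that can be skipped (SE), 32 choices between 3′ splice sites (A3SS), and 21 between 5′ splice sites (A5SS). All 10 RI were listed in each of the 8 tables and had enough reads to be tested in every one. Intron 9, whose ends are spanned by RT-qPCR primers of the study, was set against the other introns of the gene.

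The data are poly(A)-RNA seq of A549, a line established from a human lung adenocarcinoma, in 30 libraries that form 10 groups of 3. Cells were given 1 µM GSK591, an inhibitor of PRMT5, or 1 µM MS023, an inhibitor of the Type I protein arginine methyltransferases, for 2, 4, or 7 days, or both at 1 µM each (co-treatment) for 2 or 4 days. The controls were given 0.01% DMSO for 4 or 7 days. The 2-day groups were therefore compared with DMSO at 4 days, as were the 4-day groups, and the 7-day groups with DMSO at 7 days. That the control of the 7-day comparisons is DMSO at 7 days was inferred from the labels, as it is not named there. In each comparison of a 2-day group with DMSO, inhibitor and day differ together and cannot be told apart. All groups are of 1 cell line, and the labels number the replicates without naming separate cultures, so p-values measure the spread between libraries, which may be technical. The 3 libraries of a group are called a, b, and c, after their order in the tables. They held 3118222 to 5224249 reads on RI, 8287 to 27510 reads on GAS5 RI, and 910 to 3432 reads on intron 9. Keratins KRT8, KRT18, and KRT7 and the aldo-keto reductase AKR1B10, which A549 cells express strongly, had at least 17743 reads in every library, whereas the epithelial genes EPCAM and CDH1 had 5 to 297 and 266 to 1310. Among blood and fibroblast genes, PTPRC and COL1A2 had 0 reads throughout, CD3E 0 to 17, PDGFRB 0 to 4, and COL1A1 9 to 120.

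GAS5 is a host gene of box C/D small nucleolar RNAs (snoRNAs), which guide 2′-O-methylation of ribosomal RNA and are cut out of the introns after splicing. The spliced exons carry no long open reading frame and begin with a terminal oligopyrimidine tract, and the RNA is known to gather in cells whose growth has stopped. PRMT5 places symmetric dimethylarginine and the Type I enzymes asymmetric dimethylarginine on many RNA-binding proteins, among them Sm proteins of the spliceosome.

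In the GRCh37/hg19 assembly GAS5 spans 173827697 to 173838020 of chromosome 1, minus strand, in the GENCODE annotation. Exons and introns were numbered along GAS5-224, a transcript of 12 exons, which holds 7 of the RI as introns and gives the numbering that the study's primers use. These are introns 3, 5, 7, 8, 9, 10, and 11, of 193, 282, 188, 524, 168, 179, and 181 nt. An eighth RI is intron 7 taken from an upstream 5′ splice site that shortens exon 7 from 77 to 38 nt, so its retained segment also holds 39 nt of the long exon 7. The remaining RI are composites that run across exons, introns 9 to 10 (370 nt) and introns 8 to 10 (924 nt). Introns 1, 2, 4, and 6 were not listed as RI. RefSeq (GRCh38.p14) places 11 snoRNA genes within GAS5, in the order SNORD74, SNORD75, SNORD76, SNORD77, SNORA103, SNORD44, SNORD78, SNORD79, SNORD80, SNORD47, and SNORD81 from the 5′ end. GAS5-AS1 lies on the opposite strand from 173831611 to 173833079, where it meets exon 12 and none of the introns tested. Whether the counting used strand is not given in the sources used here.

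Intron 9 lies at chr1:173833645-173833812. Its sequence is printed because the results turn on it, with that of intron 10 (chr1:173833443-173833621) beside it, both from the minus strand of GRCh37. In intron 9 the capitals mark the bases at its ends, and in intron 10 they mark TGATGA and the later of its 2 CTGA, letters that occur in the C and D boxes of such snoRNAs. The other CTGA also lies after TGATGA and is not marked, and nothing here shows which of them belongs to a snoRNA.

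Intron 9: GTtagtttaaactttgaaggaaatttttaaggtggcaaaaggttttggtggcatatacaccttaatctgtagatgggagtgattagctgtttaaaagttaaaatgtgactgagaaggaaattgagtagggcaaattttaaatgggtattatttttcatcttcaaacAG
Intron 10: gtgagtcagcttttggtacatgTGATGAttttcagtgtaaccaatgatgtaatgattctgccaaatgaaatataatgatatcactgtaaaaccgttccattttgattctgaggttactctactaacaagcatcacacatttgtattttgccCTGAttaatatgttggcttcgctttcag

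Intron 9 held TGATGA at 0 places on the transcribed strand, the only strand searched. Intron 2 also held it at 0 places, and intron 1 held TGATGA without CTGA 40 to 130 bases further on. Introns 3, 4, 5, 6, 7, 8, 10, and 11 each held TGATGA with CTGA at that distance. Of 2786 RI introns of 100 to 600 nt from all genes, 6.0% held TGATGA and 2.6% held both letters at that distance. The GC content of intron 9 was 32.1%, against a median of 57.4% over RI introns, and its length of 168 nt compares with a median of 262 nt.

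The 5′ splice sites of the 7 introns are shown because they differ in how near they are to CAGGTAAGT, the sequence that pairs with U1 snRNA. Each has 3 bases of exon and 6 of intron, with the first bases of the intron, GT, in capitals.

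Intron 3: gaaGTaagt
Intron 5: atgGTaagt
Intron 7: aagGTacat
Intron 8: aagGTatag
Intron 9: cagGTtagt
Intron 10: tagGTgagt
Intron 11: aagGTgagg

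Intron 9 matched CAGGTAAGT at 8 of 9 bases, more than the others, of which introns 3, 5, and 10 matched at 7, introns 7 and 11 at 6, and intron 8 at 5. The median over RI introns was 6, and 29.3% had 7 or more. The 18 bases before the AG of intron 9 were 72.2% pyrimidine, equal to the RI median of 72.2%. The primer pairs of the study that measured intron 9 each join intron and exon, and they are shown with intronic bases in capitals because they fix which RI is meant.

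Exon 9 to intron 9, forward: ACCAAAACCTTTTGCCACCT
Exon 9 to intron 9, reverse: attcatgattgaagaaatgcagGTT
Intron 9 to exon 10, forward: acaggtctgcCTGTTTGAAGAT
Intron 9 to exon 10, reverse: ACTGAGAAGGAAATTGAGTAGGGC

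The reverse primer over the 5′ splice site covers 173833810 to 173833834, and the forward primer over the 3′ splice site covers 173833635 to 173833656, so that both ends of the RI named intron 9 are spanned.

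**Figure D1:**
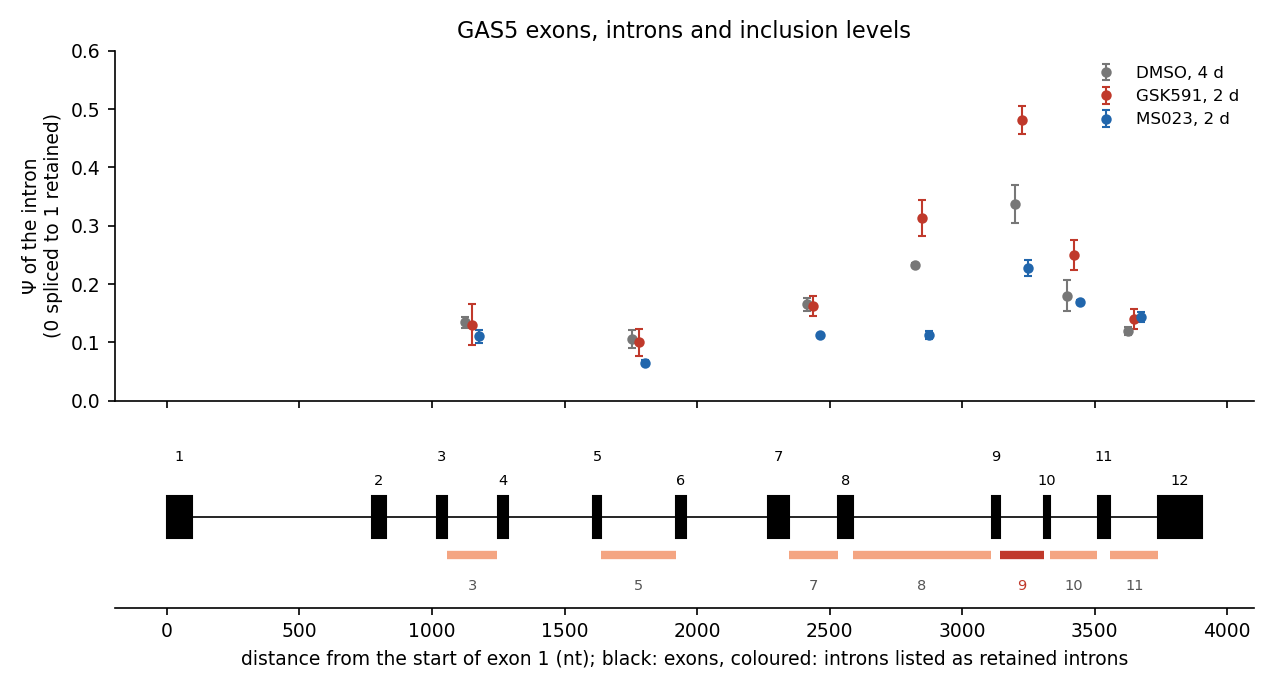
Inclusion level (Ψ, mean with SD of 3 libraries) of the 7 single introns in DMSO at 4 days and with GSK591 or MS023 at 2 days, above a map of the 12 exons (black) and these introns (coloured, intron 9 dark) by distance from the start of exon 1 in nt. Intron 9 stood highest in all 3 groups, at 0.338 in DMSO, 0.481 with GSK591, and 0.228 with MS023.

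Retention was measured as Ψ, an estimate of the share of transcripts that hold the intron. It was computed from the deposited counts as inclusion reads per effective length over the sum of this value and skipping reads per effective length, where skipping reads are those across the spliced junction. For intron 9 these lengths are 317 and 149. An event was called where a quasi-binomial test of both counts over 3 against 3 libraries, its dispersion shrunk with limma, had an adjusted p under 0.05. In control cells intron 9 was the most retained of the 7 introns. The DMSO libraries at 4 days had Ψ of 0.375, 0.316, and 0.323 (0.338 ± 0.0326, SD, n = 3), and those at 7 days had 0.275, 0.271, and 0.287 (0.278 ± 0.00804, SD, n = 3). The order in DMSO at 4 days was intron 9, intron 8 (0.233), intron 10 (0.18), intron 7 (0.165), intron 3 (0.134), intron 11 (0.119), and intron 5 (0.106). The libraries of intron 9 did not overlap those of intron 8, nor those of intron 8 with intron 10, nor those of intron 7 with intron 3, whereas introns 10 and 7 overlapped, as did introns 3 and 11 and introns 11 and 5. Intron 9 was also first in 9 of the 10 groups, the exception being MS023 at 7 days, where intron 11 had a mean of 0.133 and intron 9 of 0.13, with libraries that overlapped. These are differences of level between introns, which share their libraries, and were not tested.

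Intron 9 was higher than in DMSO with GSK591 at 2 days and lower at 7 days, whereas with MS023 it was lower at each time. In these bulk libraries, a change in every cell and a larger change in a share of the cells cannot be told apart. With GSK591 at 2 days Ψ was 0.484, 0.455, and 0.503, all above the DMSO libraries (ΔΨ = 0.143, adjusted p = 1.12e-05, inhibitor minus DMSO). At 4 days it was 0.389, 0.361, and 0.382, which overlapped DMSO and was not called (ΔΨ = 0.0392, adjusted p = 0.0542). At 7 days it was 0.198, 0.248, and 0.214, all below DMSO of the same day (ΔΨ = -0.0573, adjusted p = 0.0018). With MS023 the libraries had 0.244, 0.219, and 0.222 at 2 days (ΔΨ = -0.11, adjusted p = 9.97e-07) and 0.204, 0.18, and 0.185 at 4 days (ΔΨ = -0.148, adjusted p = 8.15e-07). At 7 days they had 0.136, 0.124, and 0.129 (ΔΨ = -0.148, adjusted p = 6.59e-11). None of the MS023 libraries reached the lowest DMSO library. With co-treatment intron 9 was also lower, at 0.287, 0.281, and 0.278 at 2 days (ΔΨ = -0.056, adjusted p = 0.00466) and 0.136, 0.184, and 0.146 at 4 days (ΔΨ = -0.183, adjusted p = 3.13e-10).

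The calls at MS023 2 days, co-treatment 2 days, and GSK591 7 days rested on all or nearly all 6 libraries. With any 1 library left out adjusted p was 0.052 to 0.183 for MS023 at 2 days, and up to 0.119 and 0.113 for the other two, where a call remained only without DMSO library b (0.0318) or without GSK591 library b (0.00333). At MS023 4 days the call was lost without MS023 library b (0.0691) or c (0.0684), and GSK591 at 4 days was called without DMSO library a (0.0188). With limma on log2 odds in place of the quasi-binomial test, intron 9 was called only with co-treatment at 4 days, and adjusted p at the other comparisons called above was 0.052 to 0.258.

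**Figure D2:**
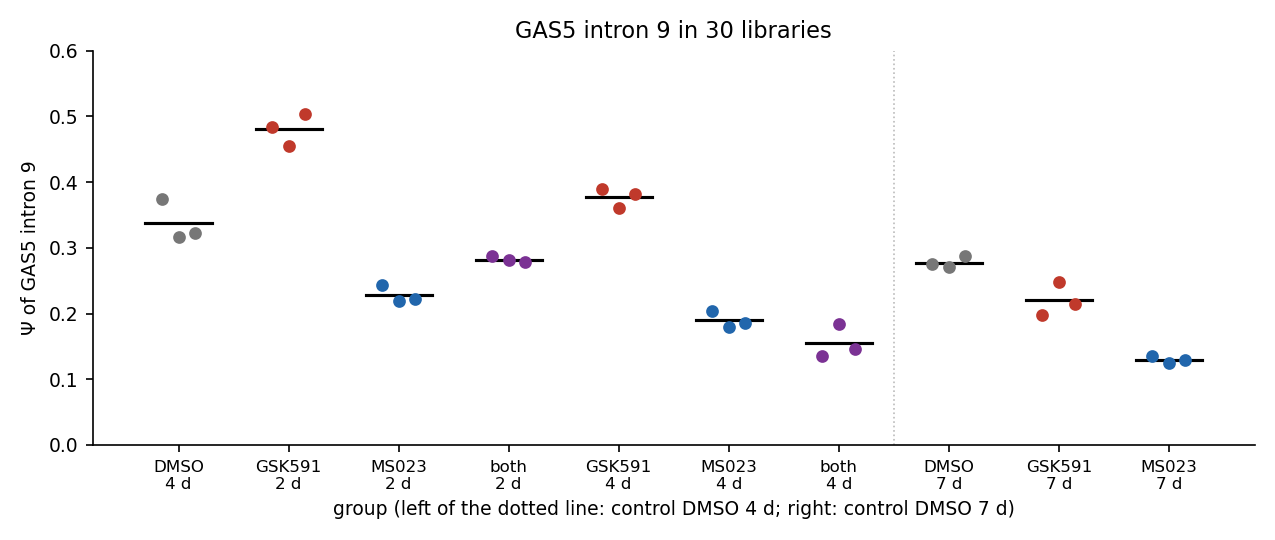
Ψ of intron 9 in each of the 30 libraries (points) with the mean of each group (lines). Libraries given GSK591 for 2 days sit at 0.455 to 0.503 and those given MS023 for 7 days at 0.124 to 0.136, the extremes of the plot.

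Setting the inhibitor groups directly against each other avoids the shared DMSO libraries. Intron 9 was higher with GSK591 than with MS023 at 2 days (difference in Ψ 0.252, adjusted p = 0.000463), at 4 days (0.188, adjusted p = 0.000143), and at 7 days (0.0905, adjusted p = 0.00344). Co-treatment lay below GSK591 at 2 days (-0.199, adjusted p = 0.0315) and at 4 days (-0.222, adjusted p = 0.011). It lay above MS023 at 2 days (0.0536, adjusted p = 0.00791), while at 4 days the difference from MS023 was not called (-0.0342, adjusted p = 0.107). The calls of co-treatment against GSK591 were lost with 5 of the 6 libraries left out in turn, to adjusted p of up to 0.327 at 2 days and 0.101 at 4 days, and under limma on log2 odds.

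Of the 10 GAS5 RI, 5 were called between GSK591 and MS023 at 2 days and 5 at 4 days, all higher with GSK591, against 29.5% and 38.7% of RI called over all genes. At 7 days 6 were called, 3 in each direction, against 31.4%. Between co-treatment and GSK591, 2 were called at 2 days and 6 at 4 days, all lower with co-treatment, where the background was 0.105% and 2.50%. Between co-treatment and MS023 there were 5 at 2 days (3 higher, 2 lower) and 7 at 4 days (1 higher, 6 lower), with a background of 31.5% and 38.5%. Within a treatment, 4 against 2 days gave 0 called GAS5 RI for GSK591 and 0 for MS023, with 0.00% of all RI called for each, and 2 for co-treatment, both lower at 4 days, against 0.283%. In these tests 6, 5, and 8 GAS5 RI had an unadjusted p under 0.05, as did 580 of 3839, 292 of 3910, and 557 of 3885 RI of all genes. Limma on log2 odds called 0 GAS5 RI in each, and 0 of all RI. DMSO at 7 against 4 days gave 0 called of 10 by the quasi-binomial test and 0 by limma. Of all RI 4.29% were called by the former and 0 by limma. In this comparison 7 GAS5 RI were under 0.05 unadjusted, as were 742 of 3778 RI of all genes. Intron 9 differed by -0.0604 there (adjusted p = 0.0937).

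The other introns followed intron 9 to different extents. Intron 8, the longest of the 7 and the neighbour on the 5′ side, came closest. Its event is listed with a 3′ flank from exon 9 to the end of exon 11, with introns 9 and 10 unspliced within it. Whether this flank ties the counts of intron 8 to those of introns 9 and 10 was not tested. In the DMSO libraries at 4 days its Ψ was 0.234, 0.229, and 0.235, and with GSK591 at 2 days it was 0.283, 0.31, and 0.345 (ΔΨ = 0.0801, adjusted p = 0.000334). It fell with MS023 at 2 days to 0.118, 0.105, and 0.116 (ΔΨ = -0.12, adjusted p = 9.43e-14) and with co-treatment at 4 days to 0.0651, 0.0657, and 0.0649 (ΔΨ = -0.167, adjusted p = 2.91e-16). Its libraries in these 3 groups did not overlap DMSO. With GSK591 it was not called at 4 days (ΔΨ = -0.0164, adjusted p = 0.142) and fell at 7 days from 0.185 to 0.113 (ΔΨ = -0.0718, adjusted p = 1.44e-06). With any 1 library left out these calls of intron 8 were kept, except that at GSK591 2 days, lost in 3 of 6 settings (adjusted p up to 0.06). Over the 8 comparisons intron 8 was called 7 times, 1 time higher and 6 times lower, the same counts as intron 9.

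Intron 10 rose with GSK591 at 2 days, from 0.206, 0.182, and 0.152 to 0.279, 0.244, and 0.228 (ΔΨ = 0.0704, adjusted p = 0.000786), and was lower in 4 other comparisons, down to 0.0869 with co-treatment at 4 days (ΔΨ = -0.0931, adjusted p = 2.35e-07). Its call at GSK591 2 days was lost in 3 of 6 settings with 1 library left out (up to 0.0813), and that at co-treatment 4 days was kept in all 6. Introns 3, 5, and 7 were called higher in no comparison. Intron 3 was lower in 4 comparisons, intron 5 in 7, and intron 7 in 6. Intron 5 was missed only at GSK591 2 days, where its libraries had 0.0738, 0.115, and 0.112 against 0.0946, 0.123, and 0.0997 in DMSO (ΔΨ = -0.00547, adjusted p = 0.53). Intron 7 had 0.166, 0.176, and 0.154 in DMSO at 4 days and 0.102, 0.0984, and 0.0956 with GSK591 at 4 days, which did not overlap (ΔΨ = -0.0667, adjusted p = 2.72e-06). With co-treatment at 4 days it had 0.0379, 0.0555, and 0.0423 (ΔΨ = -0.12, adjusted p = 8.64e-12).

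Intron 11, the last, was not called with MS023 at 2 days (ΔΨ = 0.025, adjusted p = 0.135) or 4 days (0.00443, adjusted p = 0.871). At 7 days its Ψ was 0.153, 0.113, and 0.135 against 0.0938, 0.0767, and 0.117 in DMSO (ΔΨ = 0.0377, adjusted p = 0.0277), which overlapped in 1 library of each group, while intron 9 was lower in the same libraries. This call of intron 11 was lost with any 1 library left out (adjusted p of 0.114 to 0.362) and under limma on log2 odds (0.29). It was lower with co-treatment at 4 days (ΔΨ = -0.0509, adjusted p = 1.34e-05) and with GSK591 at 7 days (ΔΨ = -0.0303, adjusted p = 0.00914), the latter lost with any 1 library left out (0.0575 to 0.195). The composite of introns 9 to 10 has few skipping reads because its junction leaves out exon 10. Transcripts that splice both introns and keep exon 10 give it no skipping read. Its Ψ is thus not the share of transcripts that hold these introns, and it moves with skipping of exon 10. This Ψ fell from 0.928, 0.911, and 0.848 to 0.568, 0.553, and 0.569 with co-treatment at 4 days (ΔΨ = -0.332, adjusted p = 1.29e-09). Its skipping reads, not scaled, went from 24, 31, and 42 to 126, 142, and 106, and its inclusion reads from 1082, 1112, and 817 to 578, 613, and 487. With GSK591 at 7 days Ψ of the composite fell from 0.925, 0.914, and 0.953 to 0.708, 0.73, and 0.684 (ΔΨ = -0.223, adjusted p = 1.2e-06).

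**Figure D3:**
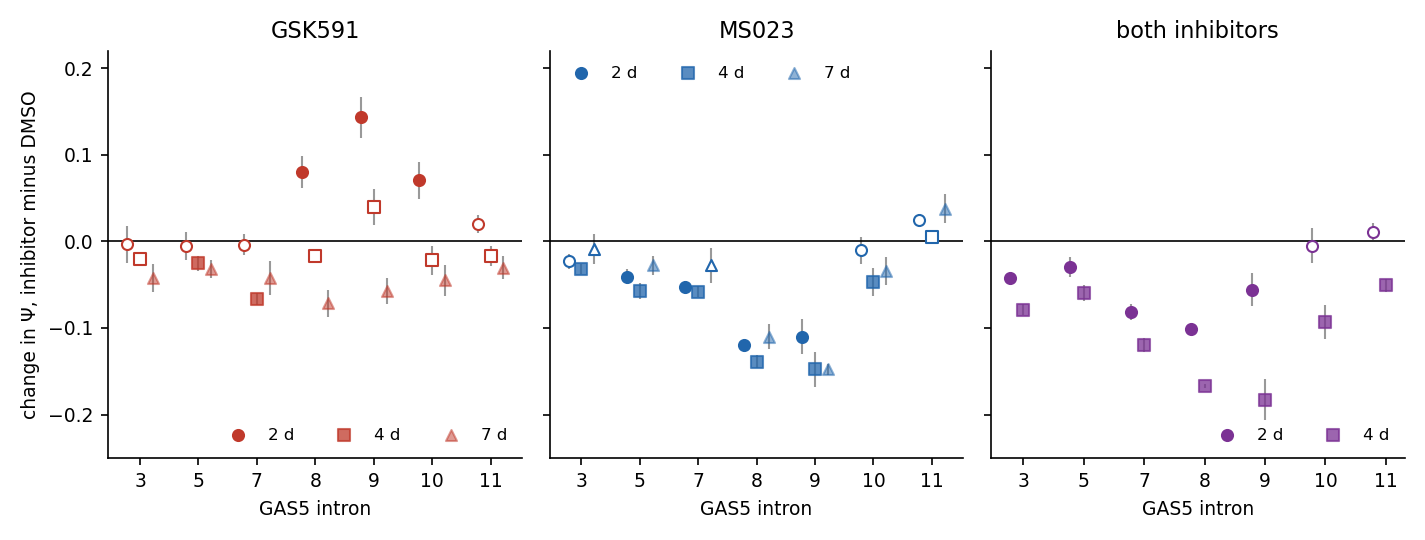
Change in Ψ against DMSO (inhibitor minus DMSO) of the 7 single introns with GSK591, MS023, and both inhibitors. Lines show the standard error of the difference of means of 3 against 3 libraries, and filled symbols were called. With GSK591 at 2 days introns 8, 9, and 10, which were called, lie above 0, as does intron 11 (0.0202), which was not called. With co-treatment at 4 days all 7 lie below 0.

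Counted over the gene, the background of each comparison is the share of RI of all genes called in that direction. With GSK591 at 2 days 4 of the 10 GAS5 RI were called, all higher, against 24.0% called higher and 2.38% lower. At 4 days 1 was higher and 3 lower, against 33.9% and 4.32%. At 7 days 1 was higher and 8 lower, against 21.8% and 6.10%. With MS023 the 5 called at 2 days and the 7 called at 4 days were all lower, against 1.44% higher and 4.21% lower at 2 days and 1.57% and 5.60% at 4 days. At 7 days 1 was higher and 5 lower, against 1.93% and 9.49%. With co-treatment 1 was higher and 6 lower at 2 days, against 29.7% and 5.03%, and 1 was higher and 9 lower at 4 days, against 33.6% and 6.10%. With any 1 library left out these counts were 2 to 4, 1 to 4, and 3 to 8 with GSK591 at 2, 4, and 7 days, 1 to 2, 1 to 5, and 2 to 3 with MS023, and 5 to 6 and 8 to 9 in co-treated cells at 2 and 4 days. Limma on log2 odds called 0, 1, and 3 with GSK591, 0 at each time with MS023, and 4 in cells co-treated for 2 days. Its count for co-treatment at 4 days and the share of all RI that it called are not given here. Whether GAS5 lost more calls under limma than other genes thus cannot be read from these counts. The median ΔΨ of the 7 single introns was 0.0202 with GSK591 at 2 days, where that of all RI tested was 0.015, and -0.0931 with co-treatment at 4 days, where that of all RI was 0.0161. With GSK591 it was -0.0207 at 4 days and -0.0423 at 7 days, against 0.0196 and 0.00762 over all RI. The RI of 1 gene share their libraries and transcripts and are not independent.

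The effect of GSK591 on intron 9 itself differed between times. On the log2 odds scale the effect at 7 days minus that at 4 days was -0.695 ± 0.152 (SE, adjusted p = 0.0064) for intron 9, -0.697 ± 0.124 (adjusted p = 0.00119) for intron 8, and -0.899 ± 0.245 (adjusted p = 0.0278) for intron 3, and 6.14% of all RI were called. For MS023 this difference was called for 0 of the 10 GAS5 RI and 0.302% of all RI, with intron 9 at -0.243 ± 0.156 (adjusted p = 0.834) and 2 GAS5 RI under an unadjusted p of 0.05. No other tool was run on these differences. The 7-day and 4-day effects have different DMSO groups. Co-treatment at 4 days lay below the sum of both single effects for intron 9 (-0.612 ± 0.164, adjusted p = 0.0494), intron 8 (-0.436 ± 0.116, adjusted p = 0.0484), and intron 3 (-0.679 ± 0.155, adjusted p = 0.0196), with 2.15% of all RI called. At 2 days 0 GAS5 RI and 0.563% of all RI were called, with intron 9 at -0.45 ± 0.14 (adjusted p = 0.227) and 6 GAS5 RI under 0.05 unadjusted. For these differences of effects the share of all RI under an unadjusted p of 0.05 is not given here. The RI that starts at the short form of exon 7 lay above the sum at 4 days (0.709 ± 0.166, adjusted p = 0.0243). The call of intron 9 against the sum at 4 days was lost with 11 of the 12 libraries left out in turn, to adjusted p of up to 0.295, whereas its time difference was kept in all 12.

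Whether intron 9 moved apart from its own transcript was tested by the log2 odds of intron 9 minus the mean of the 7 other GAS5 RI that do not overlap it. In DMSO at 4 days this quantity was 1.243, 0.797, and 0.958, and with GSK591 at 2 days it was 1.79, 1.393, and 1.645, above every DMSO library (difference 0.61, limma adjusted p = 0.316, exact permutation p = 0.1, the smallest that 3 against 3 libraries allow). With MS023 at 7 days it was 0.164, 0.252, and 0.278 against 1.277, 1.286, and 0.827 in DMSO (difference -0.899, limma adjusted p = 0.315, exact permutation p = 0.1). Intron 9 was called by limma in 0 of the 8 comparisons, and in 1 of them (MS023 at 7 days, 0.0172) it had an unadjusted p under 0.05. When differences of Ψ were used in place of log2 odds, limma called intron 9 apart from the other introns in 3 comparisons, higher with GSK591 at 2 days (0.108, adjusted p = 0.0416) and lower with co-treatment at 4 days (-0.109, adjusted p = 0.0147) and MS023 at 7 days (-0.112, adjusted p = 0.0386). Whether intron 9 stood apart thus depended on the scale. Over RI of all genes with at least 3 such RI, the log2 odds test called 1.12%, 16.6%, and 11.5% with GSK591 at 2, 4, and 7 days, 0.00%, 0.00%, and 0.00% with MS023, and 8.03% and 16.2% with co-treatment at 2 and 4 days. Of the GAS5 RI it called 1 with co-treatment at 2 days, 1 at 4 days, and 2 with GSK591 at 7 days.

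The intron 7 RI that starts at the short form of exon 7 rose with introns 8, 9, and 10 at GSK591 2 days and fell with MS023, as introns 5, 8, and 9 did, but was higher with co-treatment and with GSK591 at 4 and 7 days, where no other GAS5 RI was called higher. Its Ψ was 0.339, 0.327, and 0.348 in DMSO at 4 days and 0.425, 0.442, and 0.414 with GSK591 at 2 days (ΔΨ = 0.0888, adjusted p = 0.00122). With co-treatment at 4 days it was 0.373, 0.43, and 0.379 (ΔΨ = 0.0563, adjusted p = 0.0181), while intron 7 counted from the long form fell. It was called in all 8 comparisons, higher in the 5 with GSK591 alone or in co-treatment and lower in the 3 with MS023 alone. With any 1 library left out the call was kept at GSK591 2 and 7 days and co-treatment 2 days, and was lost in 5 of 6 settings at GSK591 4 days and co-treatment 4 days, in all 6 at MS023 2 days, and in 2 of 6 at MS023 4 and 7 days. Limma on log2 odds called it in 0 of the 8 comparisons. Its retained segment holds the 39 nt that only the long exon 7 has, so reads of spliced long exon 7 are among its inclusion reads. Its skipping reads, across the junction of short exon 7 with exon 8, numbered 63.5, 68.1, and 63.7 per 1000 reads over junctions of neighbouring GAS5 exons in DMSO at 4 days, 43, 48, and 57.1 with GSK591 for 2 days, and 68.5, 75.1, and 75.8 with MS023 for 2 days. Neither inhibitor group overlapped DMSO.

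The 5′ splice site choice of exon 7, listed as an A5SS event, moved in the same 5 and 3 comparisons in the same directions except at MS023 2 days, where it was not called (0.613, adjusted p = 0.208). Both events count the junction of short exon 7 with exon 8 and are not independent. In DMSO at 4 days the long form had Ψ of 0.647, 0.63, and 0.661. With GSK591 it was 0.749, 0.725, and 0.721 at 2 days (adjusted p = 1.78e-05) and 0.766, 0.765, and 0.812 at 4 days (adjusted p = 1.81e-07). With co-treatment it was 0.787, 0.794, and 0.804 at 2 days (adjusted p = 5.74e-10) and 0.83, 0.836, and 0.827 at 4 days (adjusted p = 3.39e-13). No library of these 4 groups reached down to DMSO. With MS023 at 4 days it was 0.593, 0.609, and 0.599 (adjusted p = 0.0476). At 7 days DMSO had 0.679, 0.656, and 0.621, GSK591 had 0.79, 0.777, and 0.797 (adjusted p = 3.02e-14), and MS023 had 0.609, 0.601, and 0.596 (adjusted p = 0.0331). With any 1 library left out the calls with co-treatment were kept at both times and that at GSK591 4 days was lost in 1 of 6 settings (0.0523), whereas those at GSK591 2 days (0.0611 to 0.0978), GSK591 7 days (0.0577 to 0.0747), MS023 4 days, and MS023 7 days were lost in all 6. Limma on log2 odds called it with co-treatment at 4 days alone (adjusted p = 0.0211).

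The reads behind Ψ were then taken apart. Spliced junction reads and inclusion reads of each RI were scaled to the library by the spliced junction reads of all RI and tested with limma. Scaled values hold within a comparison, so the same DMSO libraries have other values in another. With GSK591 at 2 days the inclusion reads of intron 9 were 2206.5, 1335, and 1344.1 against 879.6, 741.1, and 685.1 in DMSO (log2 fold change 1.06 ± 0.205, SE, adjusted p = 0.00247). The spliced reads were 1106.1, 750.2, and 625.2 against 688.1, 755.3, and 675.8 (0.20 ± 0.192, adjusted p = 0.515), which overlapped. Library a of GSK591 2 days held the most GAS5 reads of all 30, and without it the log2 fold change of the spliced reads was -0.043.

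With MS023 inclusion reads of intron 9 were fewer and spliced reads more at each time, but the balance changed. At 2 days the log2 fold change was 0.48 for spliced reads (adjusted p = 0.000114) and -0.298 for inclusion reads (adjusted p = 0.0441). The latter call was lost in 4 of 6 settings with 1 library left out. At 4 days these were 0.282 (adjusted p = 0.0087) and -0.838 (adjusted p = 1.08e-06). At 7 days the inclusion reads of intron 9 were 212.9, 227.7, and 239.5 against 511, 475.3, and 473.1 (-1.10 ± 0.114, adjusted p = 2.82e-07), and the spliced reads were 636.9, 757.4, and 756.8 against 633.2, 600.9, and 553.7 (0.26 ± 0.084, adjusted p = 0.0216). The call of the spliced reads was lost without library b or c of DMSO or library b or c of MS023 (adjusted p up to 0.0913). With GSK591 at 7 days, where Ψ was lower, inclusion reads were nonetheless more, at 592, 678, and 589.4 against 459.8, 429, and 431.1 (0.49 ± 0.105, adjusted p = 0.000597). Spliced reads were more by a larger amount, at 1123.7, 966.9, and 1016.1 against 569.7, 542.4, and 504.6 (0.94 ± 0.083, adjusted p = 5.56e-09). With co-treatment at 4 days spliced reads were 1405.5, 1192.9, and 1398.2 against 689.2, 756.9, and 670.8 (0.91 ± 0.077, adjusted p = 1.35e-09) while inclusion reads fell to 471.7, 571.7, and 508 from 881, 742.7, and 680.2 (-0.57 ± 0.104, adjusted p = 3.5e-05). A change in transcript number and a change in splicing of each transcript cannot be told apart from 1 of these counts alone.

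**Figure D4:**
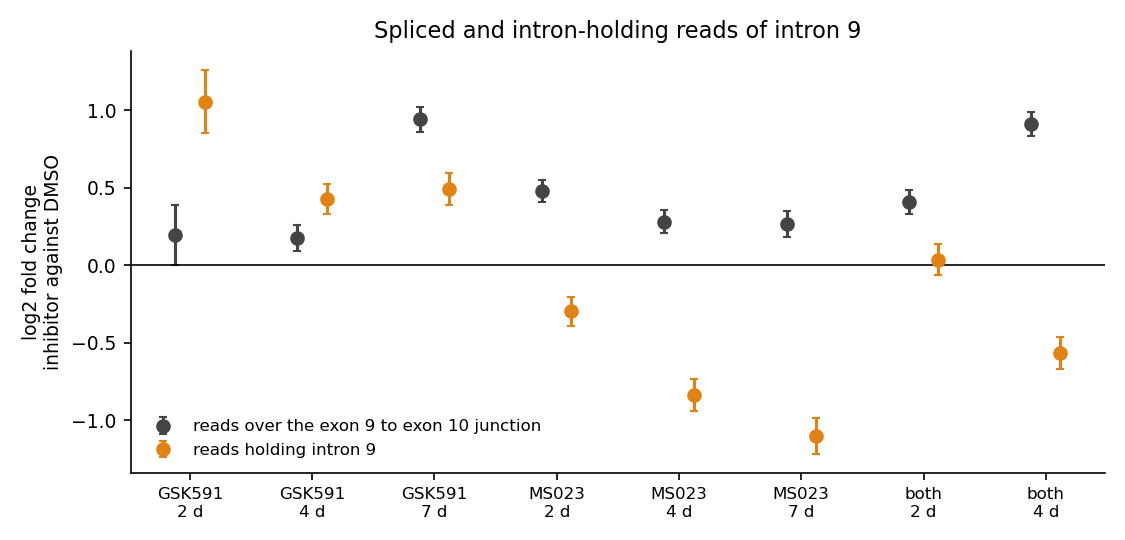
Log2 fold change against DMSO (with SE, 3 against 3 libraries) of the reads across the exon 9 to exon 10 junction and of the reads that hold intron 9. Spliced reads lie above 0 in all 8 comparisons, at 0.18 to 0.94, while reads holding the intron run from -1.10 with MS023 at 7 days to 1.06 with GSK591 at 2 days.

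Over the 7 single introns, spliced junction reads were called higher for 0, 6, and 7 introns with GSK591 at 2, 4, and 7 days, for 7, 5, and 2 with MS023, and for 7 and 7 with co-treatment at 2 and 4 days, and each call in the 8 comparisons was higher. At GSK591 2 days, where limma called 0, adjusted p ran from 0.0509 to 0.515 and 3 of 7 had an unadjusted p under 0.05, while without library a of that group 1 intron was called and without library c 2. With library size taken from all 5 event types, 3 introns were called in spliced reads at GSK591 4 days and 5 at MS023 7 days. The median log2 fold change was 0.42, 0.34, and 1.10 with GSK591, 0.49, 0.23, and 0.20 with MS023, and 0.56 and 1.13 with co-treatment, against -0.02 to 0.01 over all RI. The median over all RI is held near 0 by the scaling, which used these same reads. The junction reads of all genes were called in 15.2%, 47.9%, and 52.1% of cases with GSK591, 16.3%, 27.1%, and 33.1% with MS023, and 47.9% and 59.3% with co-treatment. Inclusion reads were called for 5, 2, and 4 introns with GSK591, all higher, and for 2 at 2 days and 2 at 7 days under the other library size. With MS023 1 was higher and 2 lower at 2 days, 5 were lower at 4 days, and 1 was higher and 3 lower at 7 days. With co-treatment 1 was higher and 1 lower at 2 days, and 4 were lower at 4 days. Over the 7 introns the median log2 fold change of inclusion reads was 0.83, 0.09, and 0.34 with GSK591. Over all RI it was 0.412, 0.588, and 0.31, so at 4 days GAS5 lay below the general rise. With MS023 the GAS5 median was -0.16, -0.49, and -0.36 against -0.093, -0.133, and -0.193. With co-treatment it was 0.04 and -0.47 against 0.466 and 0.563. The inclusion reads of all genes were called in 29.6%, 57.5%, and 49.8% of cases with GSK591, 12.0%, 20.9%, and 25.9% with MS023, and 52.7% and 61.1% with co-treatment. The intron called higher with MS023 at 2 and 7 days and with co-treatment at 2 days was intron 11, at a log2 fold change of 0.64, 0.57, and 0.55.

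The exons of GAS5 are short, and some junctions leave exons out. Summed over all such junctions listed, the reads with GSK591 at 2 days were 212, 158, and 108 against 70, 64, and 106 in DMSO, and with MS023 at 2 days 133, 140, and 94, which overlapped DMSO. With co-treatment at 4 days they were 279, 325, and 276. These sums are not scaled to the library and were not tested. Exon 10, of 23 nt, lies between introns 9 and 10. In DMSO at 4 days its Ψ as a skipped exon was 0.967, 0.966, and 0.945. With GSK591 it was 0.931, 0.919, and 0.922 at 2 days (ΔΨ = -0.0356, adjusted p = 0.00491) and 0.904, 0.915, and 0.92 at 4 days (ΔΨ = -0.0467, adjusted p = 8.2e-05). With co-treatment it was 0.908, 0.914, and 0.926 at 2 days (ΔΨ = -0.0432, adjusted p = 0.000126) and 0.916, 0.877, and 0.913 at 4 days (ΔΨ = -0.0573, adjusted p = 6.6e-06). With GSK591 at 7 days it was 0.942, 0.928, and 0.926 against 0.981, 0.977, and 0.986 (ΔΨ = -0.0494, adjusted p = 4.85e-11). In these 5 groups every library was below every DMSO library. Each of the 5 calls was lost with any 1 library left out (adjusted p of 0.376 to 0.559 at GSK591 2 days) and under limma on log2 odds. With MS023 the mean was 0.959, 0.967, and 0.981 at 2, 4, and 7 days, with adjusted p of 0.958, 0.545, and 0.979. Per 1000 reads over junctions of neighbouring GAS5 exons, those from exon 9 to exon 11 numbered 3.91, 4.31, and 6.64 in DMSO at 4 days and a mean of 10.3 with GSK591 and 11.4 with co-treatment on that day.

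A junction from exon 6 to exon 11, which leaves out exons 7 to 10, was near 0 in controls. DMSO at 4 days had 0, 2, and 0 reads across it, or 0, 0.278, and 0 per 1000. Per 1000 it was 1, 0.295, and 0.203 with GSK591 at 2 days, which overlapped DMSO, 2.67, 2.38, and 1.52 with GSK591 at 4 days, 2.47, 3.21, and 3.23 with co-treatment at 2 days, and 4.17, 6.07, and 4.47 with co-treatment at 4 days. With GSK591 at 7 days it was 0.994, 2.1, and 2.36 against 0.379, 0, and 0.417, while with MS023 the mean was 0.184, 0.129, and 0.281. As a skipped exon on this junction, exon 7 had a mean Ψ of 0.997 in DMSO at 4 days, 0.952 with GSK591 at 4 days (adjusted p = 0.000122), 0.941 with co-treatment at 2 days (adjusted p = 4.32e-06), and 0.907 with co-treatment at 4 days (adjusted p = 8.02e-09). At GSK591 2 days it was not called (0.988, adjusted p = 0.19). The 3 calls were lost with any 1 library left out (adjusted p of 0.236 to 0.346, 0.155 to 0.225, and 0.0912 to 0.131) but made by limma on log2 odds (0.0321, 0.0145, and 0.00616). The junction from exon 7 to exon 11 followed at GSK591 4 days, with 3.61, 2.94, and 1.98 per 1000 against 0.651, 0.139, and 0.474, and that from exon 5 to exon 7 with 1.41, 1.82, and 2.43 against 0.325, 0.139, and 0.474.

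At the other end of the gene a junction from exon 2 to exon 5, which leaves out exons 3 and 4, went with MS023 rather than with GSK591 alone. It numbered 1.79, 0.973, and 2.21 per 1000 in DMSO at 4 days, 3.21, 3.31, and 3.39 with MS023 at 2 days, and 4.26, 3.17, and 3.74 with MS023 at 4 days, so that no MS023 library overlapped DMSO. With GSK591 the mean was 1.68 at 2 days and 1.6 at 4 days. The event of exons 3 to 4 was called lower with MS023 at 2 days (Ψ from 0.946 to 0.889, adjusted p = 0.0442) and 4 days (0.873, adjusted p = 0.00876) and with co-treatment at 2 days (0.875, adjusted p = 0.00772). These 3 calls were lost with any 1 library left out, to adjusted p of 0.61 to 0.64, 0.605 to 0.616, and 0.246 to 0.385, and under limma on log2 odds. At MS023 7 days the event was not called (0.923 to 0.882, adjusted p = 0.26). The difference between the MS023 and GSK591 effects on this junction was not tested.

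**Figure D5:**
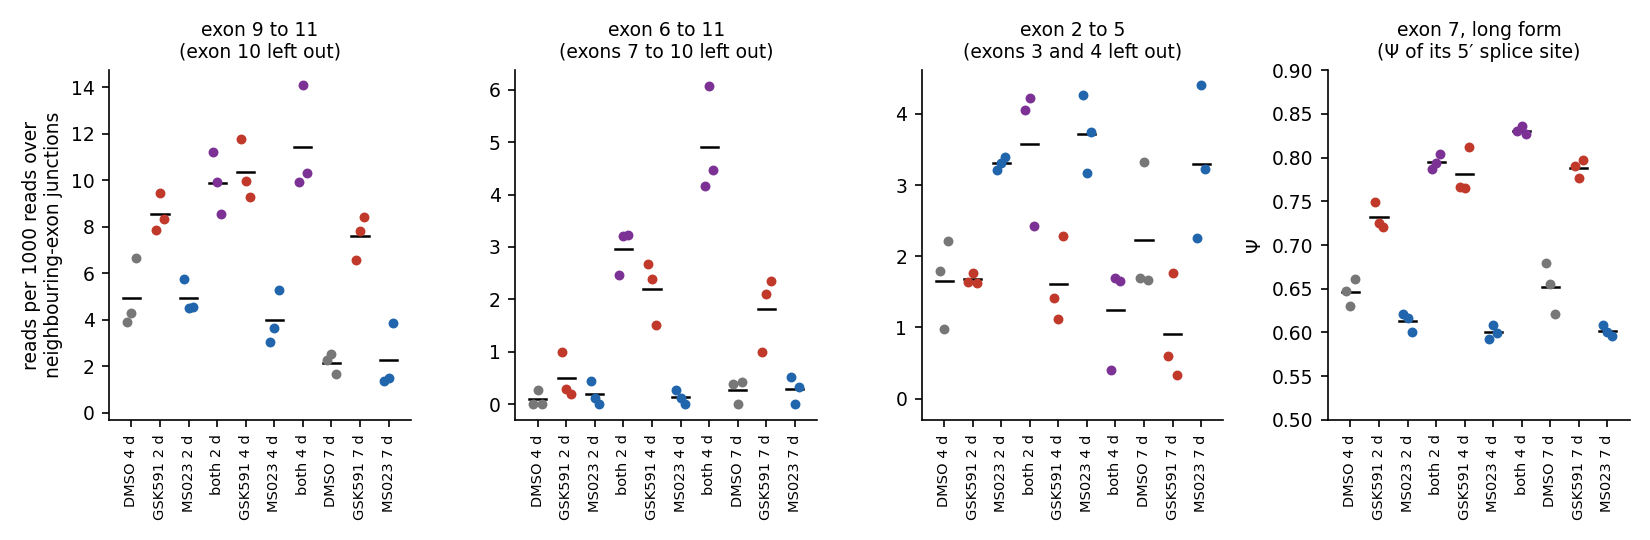
Reads per 1000 reads over junctions of neighbouring GAS5 exons for 3 junctions that leave exons out, and Ψ of the long form of exon 7 (axis from 0.5), in each of the 30 libraries (points) with group means (lines). Skipping of exon 10 and of exons 7 to 10 is higher than in DMSO in the red (GSK591) and purple (both) groups, except that of exons 7 to 10 with GSK591 at 2 days, which overlaps DMSO, and that of exons 3 and 4 at 2 and 4 days in the blue (MS023) groups.

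Of the 415 exon and splice-site events, 72 were called in at least 1 comparison and 37 in at least 2. By comparison 7 of 177 tested were called with GSK591 at 2 days, 35 of 182 at 4 days, and 29 of 165 at 7 days, against 6.33%, 10.3%, and 8.19% of such events over all genes. With MS023 6 of 157, 5 of 138, and 6 of 186 were called at 2, 4, and 7 days, against 3.08%, 3.63%, and 4.49%, and with co-treatment 31 of 151 and 35 of 167 at 2 and 4 days, against 12.6% and 13.8%. Many of these events share a junction and are not independent. Of the 37, 5 events rested on the junction from exon 7 to exon 11, 4 on exon 6 to exon 11, 3 on exon 6 to exon 12, and 2 each on exon 9 to exon 11, exon 10 to exon 12, and exon 5 to exon 7, and each of their calls was lower. Another 16 were MXE, with 31 calls higher and 20 lower. The counts fell with any 1 library left out, to 0 to 4 with GSK591 at 4 days and 10 to 20 with co-treatment at 4 days.

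Set against all genes, the pattern of intron 9 over the 30 libraries was most like that of introns of GLTSCR2, PFDN5, LMNA, BECN1, and DDX17. Likeness was Pearson's r of the log2 odds over 30 libraries among 2705 RI with at least 50 reads in every library, and the 5 are those with the highest r, 1 per gene, at 0.851, 0.825, 0.816, 0.807, and 0.805. The median r over these RI was 0.234 and the 90th percentile 0.49. The libraries share groups, controls, and depth, so r is a description. In GLTSCR2, on chromosome 19 from 48259080 to 48259784, mean Ψ was 0.0962 in DMSO at 4 days, and after 2 days 0.135 with GSK591 and 0.0408 with MS023. In PFDN5, which encodes a subunit of the prefoldin chaperone, the intron on chromosome 12 from 53690336 to 53691633 had 0.762, 0.869, and 0.546 in the same groups. Within GAS5 r with intron 9 was 0.957 for intron 8, 0.817 for intron 10, 0.803 for intron 5, 0.689 for intron 7, 0.574 for intron 3, and 0.269 for intron 11, so that intron 11 was about as like intron 9 as the median RI of any gene. The listed flank of the intron 8 event holds introns 9 and 10.

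RI of other host genes of snoRNAs were called in both directions. Of a list of 21 such genes 7 had RI that could be tested, with 12 to 14 RI in a comparison. With GSK591 at 2 days 2 were higher and 2 lower, at 4 days 3 and 1, and at 7 days 1 and 1. With co-treatment 2 were higher and 2 lower at 2 days and 5 and 1 at 4 days, and with MS023 1, 2, and 1 were called at 2, 4, and 7 days, all lower. Over all genes the share called higher was 24.0%, 33.9%, and 21.8% with GSK591 and 29.7% and 33.6% with co-treatment, and the share called lower 2.38%, 4.32%, and 6.10%, and 5.03% and 6.10%. With MS023 4.21%, 5.60%, and 9.49% were called lower. With so few host RI these counts are a description. Their median ΔΨ was 0.00141 with GSK591 at 2 days and -0.00518 with co-treatment at 4 days, where that of all RI was 0.015 and 0.0161. In the other comparisons it ran from -0.0277 (MS023 at 4 days) to 0.0307 (GSK591 at 4 days). In SNHG1, host of another set of box C/D snoRNAs, an intron on chromosome 11 from 62622411 to 62622604 rose with GSK591 at 2 days from a Ψ of 0.247 to 0.4 (adjusted p = 3.29e-05), as did GAS5 intron 9. The 3 genes named are those with the largest change among the RI called in that comparison. With co-treatment it was higher still than in DMSO, at 0.514 at 2 days (adjusted p = 5.33e-09) and 0.406 at 4 days (adjusted p = 3.82e-05), where GAS5 intron 9 was lower. In SNHG11 an intron on chromosome 20 from 37079091 to 37079175 fell with GSK591 at 2 days from 0.245 to 0.126 (adjusted p = 0.0157), and in SNHG5 an intron on chromosome 6 from 86387594 to 86387671 went from 0.0235 to 0.0338 (adjusted p = 0.00267).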

How the data were processed

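Poly(A)-RNA seq of 30 A549 libraries was analysed. Per the labels, reads were processed with Trim Galore (0.6.5), STAR (2.4.2a), Picard (2.3.0), and deepTools (3.3.1) on hg19. The authors deposited 8 rMATS comparisons of an inhibitor group with DMSO, each with 5 event types. The deposited inclusion and skipping counts are whole numbers of reads per event and library, not normalized, and inclusion counts take in reads within the segment as well as across its ends. The deposited columns also hold the authors' Ψ (a fraction), p-values and FDR, and differences in Ψ, and none of these was used. Columns name no library beyond their order, and 0 columns of per-sample values were left out. DMSO counts did not differ between tables with a shared control (0 differences).

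Ψ was computed from the counts and effective lengths. Events with at least 10 reads in every library were fitted by a quasi-binomial model of 2 groups over all events of a type, with dispersion moderated by squeezeVar of limma 3.58.1 (R 4.3.3) and held at 1 or above, an F test, and Benjamini-Hochberg adjustment within event type and comparison. Direct comparisons between inhibitor groups used the same test, and differences of effects a contrast of group log odds with 0.5 added to the counts. Intron 9 relative to the other introns was tested by limma and by an exact permutation test (two-sided, smallest possible p 0.1). A count model of spliced and inclusion reads had been planned. As the table columns list counts per library together rather than 1 library per column, limma (voom) with median-of-ratios scaling was used instead.

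Chi-square per degree of freedom between replicates was 1.88 to 4.72, so no pair of libraries agreed within sampling noise and the model carries a dispersion. On simulated data with 200 changed introns among 3836 to 3949, the quasi-binomial test recovered 33.3% to 58.3% of deep introns with a log2 odds change of 1 and 81.1% to 100% of those with a change of 2, with at most 1.2% false calls, whereas limma on log2 odds recovered 0% and 89.2% to 100%. The simulated counts took their dispersion from the quasi-binomial fit, and fewer introns changed than the 928 called higher with GSK591 at 2 days. They therefore cannot decide between the tests. Sequences were read from GRCh37 at GENCODE coordinates, and snoRNA names were taken from RefSeq.

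The members and gene lists were chosen with earlier results of these data known. Named events are all GAS5 events, with values per library for intron 9 and for events called in 2 or more comparisons (events that share a junction by that junction, MXE by counts). Alternatives were another test, other read minima, another adjustment, other dispersion settings, other scalings, and each library left out. SKaTER-seq, actinomycin D, and RT-qPCR data were not analysed here, and a gene of the marker list is not reported here.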

Additional observations from a re-analysis of the deposited data

Results flagged for a closer look

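Effects on 4 GAS5 RI were called as differing between conditions by a test of the difference itself. With GSK591 the effect at 7 days minus that at 4 days, on the log2 odds scale, was -0.899 for intron 3, -0.697 for intron 8, and -0.695 for intron 9 (adjusted p of 0.0278, 0.00119, and 0.0064 by the quasi-binomial contrast with dispersion moderated by limma). The effects at the 2 times were measured against different DMSO groups, and Ψ of intron 9 in DMSO was 0.338 at 4 days and 0.278 at 7 days, whose part in the difference was not tested. With co-treatment at 4 days the effect minus the sum of both single effects was -0.679 for intron 3, -0.436 for intron 8, and -0.612 for intron 9 (adjusted p of 0.0196, 0.0484, and 0.0494). The RI of intron 7 that starts at the short form of exon 7 lay on the other side, at 0.709 (adjusted p = 0.0243). Of all RI 6.14% were called for the time difference with GSK591 and 2.15% against the sum at 4 days. The call of intron 9 against the sum was lost with 11 of the 12 libraries left out in turn.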

How the results depend on the processing

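Under other read minima, other dispersion settings, or the median of the other introns, no call of intron 9 was lost or gained and no count of GAS5 events moved beyond 1.5 times. No called value changed sign under any setting run. With limma on log2 odds the number of the 10 GAS5 RI called was 0 (GSK591 2 days), 1 (GSK591 4 days), 3 (GSK591 7 days), 0, 0, and 0 (MS023 at 2, 4, and 7 days), and 4 (co-treatment 2 days). The limma count for co-treatment at 4 days and the limma share over all RI are not given here. By the same setting intron 9 was not called at GSK591 2 days (ΔΨ 0.143, adjusted p = 0.052) and 7 days (-0.0573, adjusted p = 0.169), MS023 2 days (-0.11, adjusted p = 0.258), 4 days (-0.148, adjusted p = 0.129), and 7 days (-0.148, adjusted p = 0.0542), and co-treatment 2 days (-0.056, adjusted p = 0.215), nor in the direct comparisons of co-treatment with GSK591 at 2 days (-0.199, adjusted p = 0.158) and 4 days (-0.222, adjusted p = 0.0506) and with MS023 at 2 days (0.0536, adjusted p = 0.112). Exon and splice-site events called by it numbered 0, 10, and 2 with GSK591, 0, 0, and 0 with MS023, and 13 and 22 with co-treatment. In simulated data limma on log2 odds recovered 0% of deep introns changed by 1 and 89.2% to 100% of those changed by 2. Those data took their dispersion from the quasi-binomial fit and cannot decide between the tests.

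On the Ψ scale intron 9 relative to the other introns was called at GSK591 2 days (0.108), co-treatment 4 days (-0.109), and MS023 7 days (-0.112). As a plain share of reads the change of intron 9 was -0.188 and -0.209 with MS023 at 4 and 7 days and -0.239 with co-treatment at 4 days. With library size taken from all 5 event types, introns called in inclusion reads numbered 2 at GSK591 2 days and 2 at 7 days, introns called in spliced reads 3 at GSK591 4 days and 5 at MS023 7 days, and the fall in inclusion reads of intron 9 at MS023 2 days (-0.291) was not called, as with no filter on low counts (-0.298). The cause of these differences was not tested.

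With each library left out in turn, GAS5 RI called ranged from 2 to 4, 1 to 4, and 3 to 8 with GSK591 at 2, 4, and 7 days and from 1 to 2, 1 to 5, and 2 to 3 with MS023. The change of intron 9 ranged from 0.028 to 0.0579 and from -0.0712 to -0.0465 with GSK591 at 4 and 7 days, from -0.121 to -0.0909 and from -0.16 to -0.13 with MS023 at 2 and 4 days, and from -0.0672 to -0.0373 with co-treatment at 2 days. Against GSK591 co-treatment ranged from -0.211 to -0.188 at 2 days and from -0.236 to -0.212 at 4 days, and against MS023 at 4 days from -0.0484 to -0.0247. Co-treatment minus both single effects at 4 days ranged from -0.76 to -0.496 (log2 odds). Exon and splice-site events called ranged from 0 to 0, 0 to 4, and 0 to 2 with GSK591, 0 to 0, 0 to 1, and 0 to 4 with MS023, and 2 to 9 and 10 to 20 with co-treatment. Introns called in spliced reads ranged from 0 to 2 at GSK591 2 days and from 3 to 5 and 1 to 4 at MS023 4 and 7 days, and in inclusion reads from 2 to 7, 1 to 2, and 2 to 6 with GSK591 and from 2 to 4 with MS023 at 7 days. The log2 fold change of intron 9 ranged from 0.137 to 0.276 (GSK591 4 days) and 0.21 to 0.354 (MS023 7 days) in spliced reads, from -0.043 to 0.383 at GSK591 2 days, and from -0.373 to -0.202 (MS023 2 days) in inclusion reads.

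The alternatives planned for the count model, with another scaling, were not run, since that model was replaced. No paired analysis was possible because the columns carry no replicate numbers. Settings on the exon 7 event that holds exonic bases, trend dispersion, and each library left out of the differences of effects were chosen after seeing the data. Every library had at least 910 reads on intron 9, whereas the junction of exon 6 with exon 11 rests on 0 to 2 reads in each DMSO library.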
